A study of Xenopus laevis with 25 samples.

Results

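The comparison described here sets embryos given an RNF20 morpholino against wild-type embryos at 15 hours post fertilization (hpf), by poly(A)-selected RNA from whole embryos. It uses the 3 libraries labelled Hour15 with the morpholino genotype and the 2 labelled Hour15 wild type, 5 of the 25 libraries of a time course that also covers 12, 13, 14 and 16 hpf with the same numbers per arm. The series title ties ubiquitination of histone H2B to heart development and cilia motility, and the comparison asks which transcripts differed between the arms at this hour. The labels name injection of a morpholino as the treatment of all samples and do not give a dose, an injection site or a control oligomer, so it is not known here whether wild-type embryos were injected. They do not say either that replicates came from separate clutches. The p-values below therefore measure only the spread between libraries, pooled over all 25, and that spread may be technical.

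RNF20 is a ubiquitin ligase that works as a complex with RNF40 and attaches a single ubiquitin to histone H2B, a mark laid down in transcribed genes with the help of the PAF1 elongation complex. The mark is needed in many systems for full methylation of histone H3 by the COMPASS and DOT1L enzymes. Morpholinos are antisense oligomers that bind an RNA and block its splicing or its translation. In frog embryos of this age the neural plate folds, somites begin to form, the cardiac precursors are specified and the epidermis makes its first multiciliated cells.

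The 3 morpholino libraries held 22171995, 20784528 and 36150636 estimated counts, and the 2 wild-type libraries held 22033980 and 20957429. Levels are given as CPM, counts relative to the library total, scaled by TMM, a factor that balances libraries of different composition. Morpholino replicate 3 stood apart from the other 4 libraries. It was the deepest, its 13 mitochondrially encoded transcripts took 2.31% of counts, against 1.54% and 1.42% in the other morpholino libraries and 1.16% and 1.31% in wild type, and its log2 CPM correlated with the others at 0.900 to 0.940 across transcripts, against 0.952 to 0.968 among the rest. Such coefficients, taken over transcripts that are not independent, are a description of the libraries. The counts of calls and many other results are therefore given both with all libraries and without morpholino replicate 3. Values given once are from all libraries unless stated, and were not all compared between the 2 fits. Markers of the tissues of a whole embryo were detected in each of the 5 libraries: sox2 of the neural plate stood at 74.5 to 118 CPM, myod1 of muscle precursors at 62.3 to 85.7 CPM, tp63 of the epidermis at 70.7 to 139 CPM, sox17a of the endoderm at 92.1 to 200.4 CPM, snai2 of the neural crest at 88.6 to 150.3 CPM and tal1 of blood precursors at 56.8 to 79.2 CPM. The epidermal keratin krt12 stood at 479, 450 and 106 CPM in the morpholino libraries and at 550 and 473 CPM in wild type, with replicate 3 far below the other 4.

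The targeted transcript did not differ detectably. Rnf20 stood at 76.5, 69.4 and 90.6 CPM in the morpholino libraries and at 74.5 and 64.9 CPM in wild type, and the log2 change was 0.18 ± 0.20 (SE, with adjusted p = 0.784 in edgeR's quasi-likelihood test, the test used throughout). The arms overlapped. A morpholino can act without lowering the RNA of its target, and neither the knockdown nor the labels can be checked by these levels. Its partner rnf40 stood at 129, 130 and 223 CPM in the morpholino libraries and at 88.0 and 107 CPM in wild type, all 3 above both, with a log2 change of 0.72 ± 0.20 (SE, edgeR adjusted p = 0.232). Without replicate 3 the value for rnf40 was 0.41 and passed the test (edgeR adjusted p = 0.0476).

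Few transcripts passed the test with all libraries. Those that rose included ccng1 and aen, targets of p53, and those that fell included rpap3, pdlim7 and lmnb3, of a co-chaperone, the cytoskeleton and the nuclear lamina. Of 16967 transcripts tested, 8 rose (0.0472%) and 8 fell (0.0472%) at an adjusted p under 0.05. At an unadjusted p under 0.05, 1629 differed (9.6%), 901 of them higher and 728 lower in morpholino embryos. In 2941 transcripts (17.3%) all 3 morpholino libraries lay above both wild-type libraries, and in 3671 (21.6%) all 3 lay below. The median log2 change over all tested transcripts was -0.02. Without morpholino replicate 3 at any hour, 299 transcripts rose (1.79%) and 227 fell (1.36%) of 16668 tested, and these included all 16, each with the same sign. That fit leaves out 5 libraries, 1 per hour, and is the one meant below by values without replicate 3. Leaving out the 15 hpf library of replicate 3 alone gave 3 higher and 4 lower, with 7 of the 16 still called. With only the 5 libraries of 15 hpf in the fit, edgeR called 0 of the 16, and all 16 kept their sign. DESeq2 on the same transcripts called 142 higher (0.837%) and 103 lower (0.607%), all 16 among them. The counts for lists below are to be read beside these shares of all transcripts. The edgeR count rested on single libraries of wild type too: without wild-type replicate 2 at 15 hpf edgeR called 0 transcripts, with 1191 at an unadjusted p under 0.05, and without wild-type replicate 1 it called 4 higher and 1 lower.

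For the 526 transcripts called without replicate 3, that library lay on the same side of the wild-type mean as the other morpholino libraries in 498. This is a description and no independent support, because the transcripts were chosen against the same 2 wild-type libraries. Its median shift in the called direction was 1.02 on the log2 scale, against 0.68 and 0.59 in replicates 1 and 2, which chose them. Over all 5 libraries the arms did not overlap in 491.

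**Figure D1:**
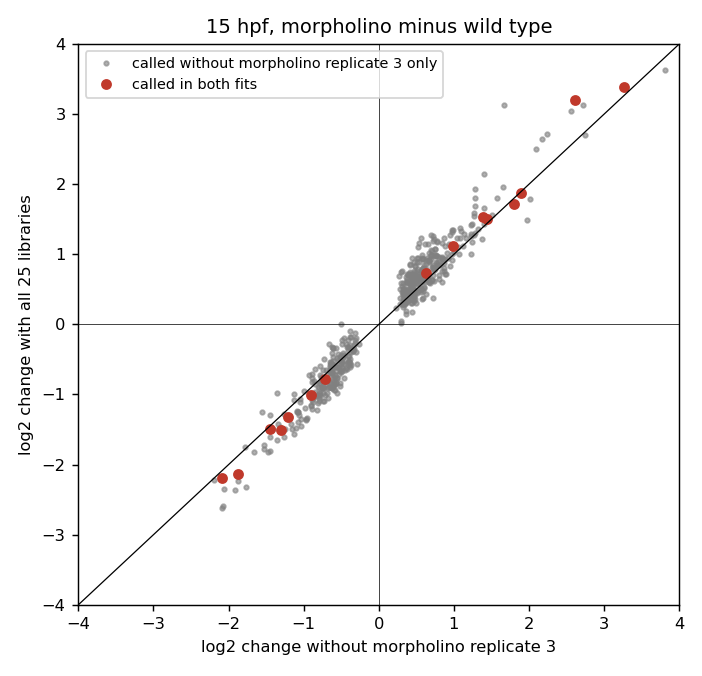
Log2 change at 15 hpf (morpholino minus wild type) with all 25 libraries in the fit (vertical axis) against the change without morpholino replicate 3 (horizontal axis), for 523 of the 526 transcripts called without it, leaving out 3 whose fitted change exceeded 6 log2 units in either fit. Red circles mark transcripts called in both fits, grey points those called without replicate 3 only, and the diagonal marks equal values.

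Of the 8 transcripts that rose, 3 belong to the p53 and cell death list, where dedd was put with its earlier result known. Ccng1, cyclin G1 and a target of p53, stood at 609, 487 and 464 CPM in the morpholino libraries and at 152 and 163 CPM in wild type. The lowest morpholino library was well above the highest wild-type one, and the log2 rise was 1.72 ± 0.25 (SE, edgeR adjusted p = 0.00658). Aen, an exonuclease that p53 induces during apoptosis, had 68.3, 51.9 and 80.1 CPM in the morpholino libraries and 24.2 and 21.8 CPM in wild type, a log2 rise of 1.54 ± 0.27 (SE, edgeR adjusted p = 0.0323). A dedd transcript, for a protein with a death effector domain, had 16.4, 10.6 and 34.3 CPM in the morpholino libraries and 1.19 and 3.24 CPM in wild type, a log2 rise of 3.21 ± 0.60 (SE, edgeR adjusted p = 0.0491). The other dedd transcript stood at 0.90 (adjusted p = 0.232), and the sum over both rose by 1.64 (edgeR adjusted p = 0.0115).

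The p53 and cell death list had 51 tested transcripts, of which 3 rose and 0 fell, against 0.0472% each way of all transcripts. Dedd was put on the list with its earlier result known. Its part in this and the following counts is no independent result about the list. At an unadjusted p under 0.05, 11 of the 51 were higher and 0 lower, where 901 and 728 of all 16967 transcripts were. The arms did not overlap in 18 that were higher and 6 that were lower in morpholino embryos, against 17.3% and 21.6% of all transcripts. The list's median log2 change was 0.20, where that of all transcripts tested was -0.02. Without replicate 3 the list's median was 0.14, and of all transcripts 1.79% rose and 1.36% fell. Of the 51 on the list, 11 rose and 0 fell in that fit. They include ccng1, aen, both dedd transcripts, eda2r, mdm2, plk2, ddit4 and gadd45g. The receptor eda2r, a p53 target, stood at 14.1, 10.3 and 10.9 CPM in the morpholino libraries and at 2.31 and 1.29 CPM in wild type, so no libraries overlapped. Its log2 change was 2.70 ± 0.58 with all libraries (SE, edgeR adjusted p = 0.096) and 2.75 without replicate 3 (adjusted p = 0.00907). Mdm2, the ligase that degrades p53, stood at 131, 111 and 117 CPM in the morpholino libraries and at 74.0 and 72.9 CPM in wild type, with changes of 0.70 and 0.72 in the same 2 fits (edgeR adjusted p = 0.330 and 0.00431).

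Outside that list, riok3, an atypical kinase, rose to 294, 241 and 298 CPM in the morpholino libraries, against 97.6 and 98.5 CPM in wild type, a log2 change of 1.5 ± 0.25 (SE, edgeR adjusted p = 0.0187). Pcm1, the scaffold of centriolar satellites, rose to 172, 195 and 235 CPM in the morpholino libraries, against 102 and 82.9 CPM in wild type, a log2 change of 1.12 ± 0.15 (SE, edgeR adjusted p = 0.00507). Stard7, a lipid transfer protein that carries phosphatidylcholine to mitochondria, rose to 230, 217 and 270 CPM in the morpholino libraries, against 149 and 139 CPM in wild type, with a log2 rise of 0.73 ± 0.14 (SE, edgeR adjusted p = 0.0495). In none of these 3 did any library of one arm reach the range of the other.

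The remaining rises were of single transcripts of genes with several, where the split of reads between transcripts is an estimate. The largest was a transcript of cxxc1, the subunit of the COMPASS complex that binds unmethylated CpG sites, at 23.0, 25.7 and 30.7 CPM in the morpholino libraries and at 2.87 and 2.17 CPM in wild type (log2 change 3.39 ± 0.41, SE, edgeR adjusted p = 0.00288). The other 3 tested cxxc1 transcripts were not called, with log2 changes from 0.06 to 0.81, and the sum over the symbol stood at 0.61 (adjusted p = 0.331). A transcript of yju2, a splicing factor, stood at 8.59, 9.27 and 8.44 CPM in the morpholino libraries and at 2.47 and 2.31 CPM in wild type (log2 change 1.87 ± 0.31, SE, edgeR adjusted p = 0.0187). Its second transcript was listed at 0 in all 3 morpholino libraries and at 6.05 and 6.61 CPM in wild type, and the sum over the symbol stood at 0.03. The yju2 value was the sole one of the 16 to change sign against wild type of an earlier hour, at -0.01 against 14 hpf and -0.14 against 13 hpf.

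Among the 8 that fell, rpap3, a co-chaperone of the R2TP complex that helps to assemble RNA polymerase II and axonemal dyneins, stood at 11.8, 20.6 and 8.37 CPM in the morpholino libraries and at 58.5 and 60.2 CPM in wild type. Every morpholino library was far below both wild-type libraries, and the log2 change was -2.13 ± 0.29 (SE, edgeR adjusted p = 0.00507). Pdlim7, a PDZ and LIM domain protein of the actin cytoskeleton, stood at 71.8, 98.0 and 52.0 CPM in the morpholino libraries and at 214 and 206 CPM in wild type (log2 change -1.51 ± 0.21, SE, edgeR adjusted p = 0.00633). Lmnb3, a B-type lamin of the frog egg and embryo, stood at 50.6, 61.9 and 44.7 CPM in the morpholino libraries and at 106 and 105 CPM in wild type (log2 change -1.01 ± 0.15, SE, edgeR adjusted p = 0.00696).

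Klhl25, a substrate adaptor of a ubiquitin ligase, stood at 1.63, 2.43 and 1.62 CPM in the morpholino libraries and at 9.40 and 7.89 CPM in wild type (log2 change -2.19 ± 0.40, SE, edgeR adjusted p = 0.0445). Guf1, a translation factor of mitochondria, fell by 1.5 ± 0.25 and nsmaf, an adaptor of TNF receptor signalling, by 1.32 ± 0.24 in log2 units (SE, edgeR adjusted p = 0.0187 and 0.0426), again with no overlap of the arms. A transcript without a symbol fell by 0.79. A transcript of pex5, the import receptor of peroxisomes, had 0 counts in the 3 morpholino libraries, against 2.19 and 2.53 CPM in wild type, at least 17.5-fold lower with a floor of 3 counts per library, while the sum over the 4 pex5 transcripts stood at -0.09. Just short of the test, ndufa1, a subunit of respiratory complex I, stood at -1.71 and gns, a lysosomal sulfatase, at -1.08 (edgeR adjusted p = 0.0638 each), and both passed without replicate 3 at -1.52 and -1.14 (adjusted p = 0.00567 and 0.0113).

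**Figure D2:**
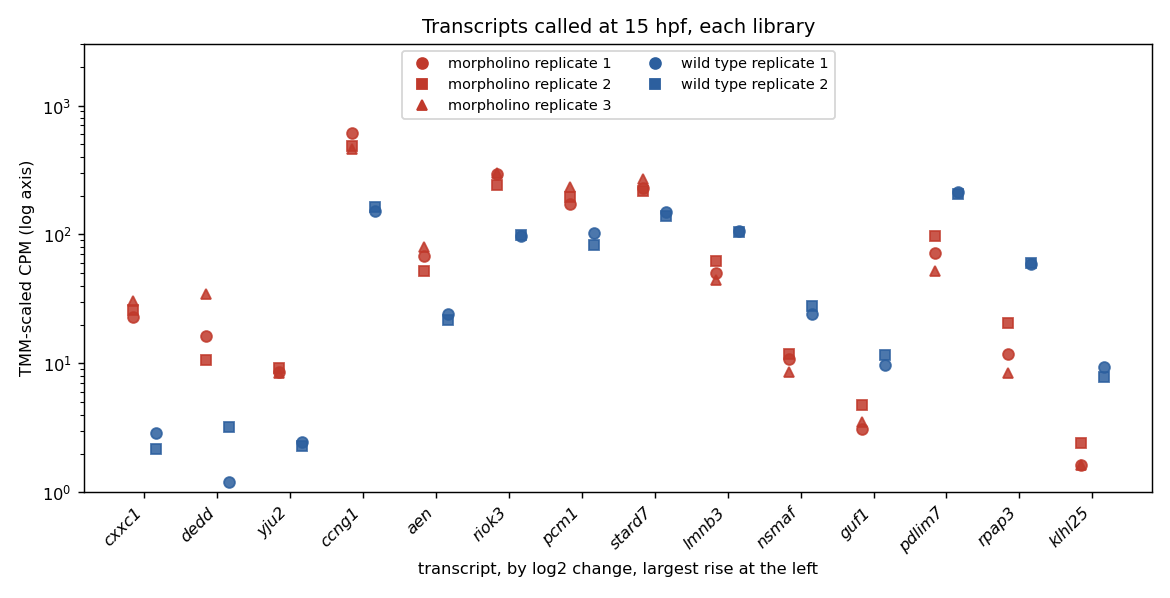
TMM-scaled CPM on a log axis of 14 of the 16 transcripts called at 15 hpf, with 1 point per library, morpholino libraries in red at the left of each transcript and wild-type libraries in blue at the right. In each transcript the 3 red points lie wholly above or wholly below the 2 blue ones. The pex5 transcript, at 0 in morpholino libraries, and the transcript without a symbol are not drawn.

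These transcripts were not particular to 15 hpf. All 16 had the same sign at 12, 13 and 14 hpf and 15 of 16 at 16 hpf, and 7, 8, 12 and 13 of them were also called at 12, 13, 14 and 16 hpf. Over all 16967 transcripts, 4, 5, 11 and 22 rose and 4, 10, 10 and 12 fell at those hours. The hours share 1 estimate of spread, so a call at 1 hour is not independent of a call at another. Each hour has its own libraries, but replicate 3 had the largest mitochondrial share at every hour, so libraries of the same number need not be independent between hours. Rpap3 stood at -1.90, -1.78, -2.25, -2.13 and -1.99 on the log2 scale from 12 to 16 hpf, and ccng1 at 2.09, 1.91, 2.0, 1.72 and 1.85. The exception was the yju2 transcript, at 0.26, 0.51, 0.42, 1.87 and -0.19. A test of the 15 hpf change against the mean change of the other 4 hours called 0 transcripts with edgeR. At an unadjusted p under 0.05 there were 184 of 16967 (1.08%). DESeq2 called 12, and edgeR called 1 without morpholino replicate 3. On simulated counts this edgeR test recovered 4% of transcripts changed 2-fold and 66% of those changed 4-fold. A count of 0 therefore does not show that the hours were alike. The smallest p among transcripts with a symbol belonged to yju2 (a difference of 1.63, edgeR unadjusted p = 0.000131). Next came a transcript of bcap29, a protein of the endoplasmic reticulum, at 4.36, 5.94 and 6.08 CPM in the morpholino libraries and at 0 in both wild-type libraries, at least 41.1-fold higher by the same floor, while its second transcript was listed at 0 in the morpholino arm and at 3.03 and 2.75 CPM in wild type.

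**Figure D3:**
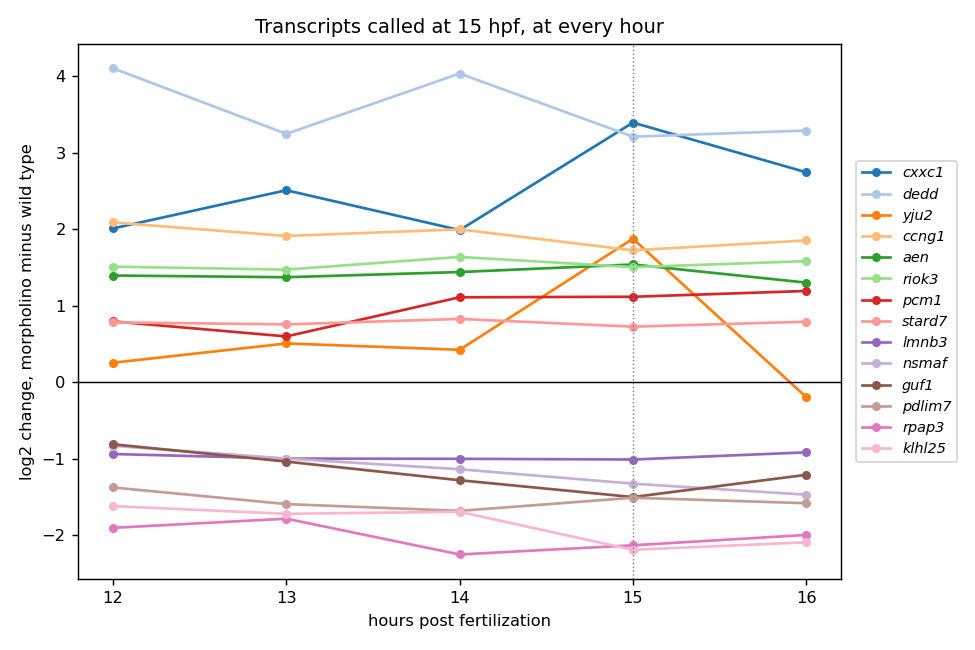
Log2 change between morpholino and wild-type embryos (vertical axis) at 12 to 16 hpf (horizontal axis) for the same 14 transcripts, with 15 hpf marked by a dotted line. Lines keep to one side of 0 except that of yju2, which stands at -0.19 at 16 hpf.

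The multiciliated cell regulators were higher by value and mostly not called. Of 43 tested transcripts, 1 rose (pcm1, put on the list with its earlier result known) and 0 fell. At an unadjusted p under 0.05, 16 were higher and 0 lower, where 901 and 728 of all 16967 transcripts were. The arms did not overlap in 19 that were higher and 6 that were lower, against 17.3% and 21.6% of all transcripts. The median log2 change was 0.28 (0.21 without replicate 3). MCIDAS, which switches on the multiciliated programme, stood at 20.6, 21 and 42.5 CPM in the morpholino libraries and at 0.836 and 5.36 CPM in wild type. The arms did not overlap, but the 2 wild-type libraries differed widely and the log2 change of 3.18 ± 0.82 missed the test (SE, edgeR adjusted p = 0.187). CDC20B, whose locus lies beside MCIDAS and ccno in vertebrates, stood at 9.30, 11.3 and 17 CPM in the morpholino libraries and at 0.438 and 3.15 CPM in wild type (2.81 ± 0.68, SE, edgeR adjusted p = 0.154). Without replicate 3 pcm1 and plk4, the kinase that starts centriole duplication, rose and 0 fell. DESeq2 with all libraries called 6 of the 43 higher and 0 lower, namely pcm1, MCIDAS, CDC20B, ccno and 2 transcripts of stil, a centriole assembly gene. Over all transcripts DESeq2 called 0.837% higher and 0.607% lower. In bulk RNA, a change in the number of cells of a type and a change in RNA per cell cannot be told apart.

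The level of MCIDAS depended on the hour in both arms. Its mean was 48.6, 44.8, 35.7, 28.0 and 10.8 CPM in morpholino embryos from 12 to 16 hpf and 39.1, 20, 9.31, 3.1 and 1.2 CPM in wild type. Set against wild type of 14 hpf, the 15 hpf morpholino libraries gave a log2 change of 1.58, and against wild type of 13 hpf 0.48, neither called. The median of the whole list was -0.13 against wild type of 13 hpf. Foxj1, the master regulator of motile cilia, stood at 62.7, 72.4 and 120.3 CPM in the morpholino libraries and at 50.7 and 57.7 CPM in wild type (0.65 ± 0.28, SE, edgeR adjusted p = 0.479). Of the 2 rfx2 transcripts, whose product acts with foxj1 on ciliary genes, the abundant one stood at 0.28 and the other at 1.29, neither called.

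Transcripts of the motile axoneme had medians below 0 and none was called by edgeR or DESeq2. Of 31 tested transcripts for the dynein arms of the axoneme and their docking, 0 rose and 0 fell. At an unadjusted p under 0.05, 0 were higher and 2 lower. The arms did not overlap in 2 that were higher and 7 that were lower, against 17.3% and 21.6% of all transcripts. The median was -0.18 (-0.13 without replicate 3). Wdr78, a dynein intermediate chain, stood at 12.8, 16.2 and 9.46 CPM in the morpholino libraries and at 22.9 and 22.4 CPM in wild type, with all 3 below both (-0.82 ± 0.31, SE, edgeR adjusted p = 0.411, and -0.64 without replicate 3 with adjusted p = 0.0531). Dnah5, a heavy chain of the outer arm, stood at 14.6, 16.6 and 11.3 CPM in the morpholino libraries and at 32.6 and 17.1 CPM in wild type, where the spread between the 2 wild-type libraries was larger than the gap between the means of the arms (-0.81 ± 0.48, SE, adjusted p = 0.599).

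Of 86 transcripts for radial spokes, nexin links and the central pair, 0 were called by either tool (1 higher and 2 lower at an unadjusted p under 0.05). The arms did not overlap in 6 that were higher and 21 that were lower, against 17.3% and 21.6% of all transcripts. The median was -0.14 (-0.09 without replicate 3). CFAP43, a protein tethering inner dynein arms, stood at 16.9, 20.5 and 12.3 CPM in the morpholino libraries and at 32.2 and 27.4 CPM in wild type (-0.85, edgeR adjusted p = 0.517). Of 86 transcripts of intraflagellar transport, the BBSome and the transition zone, edgeR called 0. At an unadjusted p under 0.05, 2 were higher and 3 lower. DESeq2 called 2 higher, bbs12 and ift20, and the median was -0.10. Without overlap, 7 were higher and 24 were lower, against 17.3% and 21.6% of all transcripts. Without replicate 3, ift20, which carries cargo from the Golgi to the cilium, rose by 0.56 on the log2 scale (edgeR adjusted p = 0.00907), the 1 member of the list that rose, and 1 fell. In the list of 22 dynein assembly factors and R2TP members, rpap3, put there with its earlier result known, was the 1 transcript that fell. In the same list 0 rose, with a median of 0.06. Spag1, a further assembly factor, had a transcript at 0.69 and another at -0.46, and the sum over the symbol stood at -0.06. Without replicate 3 both were called, at 0.58 and -0.47 (edgeR adjusted p = 0.0165 and 0.0391), for 1 higher and 2 lower on the list, and DESeq2 with all libraries called 1 higher and 1 lower.

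**Figure D4:**
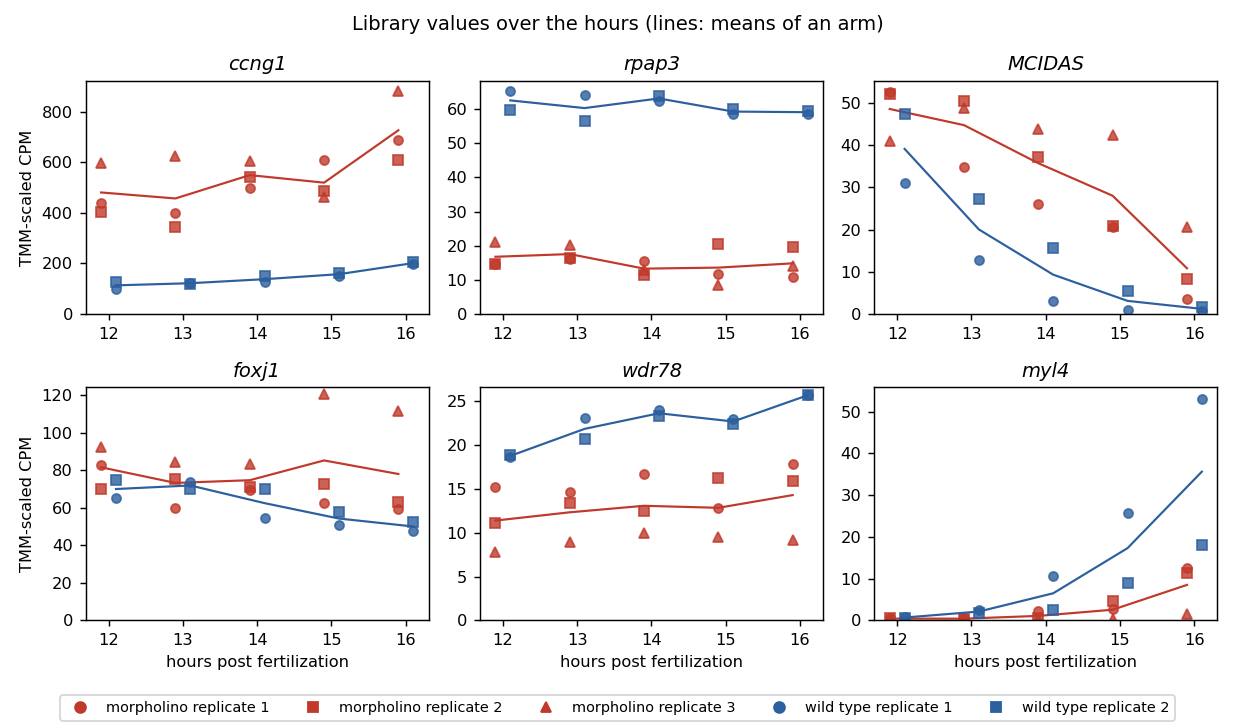
TMM-scaled CPM of 6 transcripts at 12 to 16 hpf, with 1 point per library (morpholino in red, wild type in blue) and a line through each arm's mean. Ccng1 and rpap3 are apart at each hour, MCIDAS declines in both arms with a lower mean in wild type at each hour, and the contractile gene myl4 is higher at 16 than at 12 hpf in both arms and has all morpholino libraries below all wild-type libraries at each hour.

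No heart or left-right transcript was called by edgeR or DESeq2. Of 52 tested transcripts on the heart and cardiac mesoderm list, 0 rose and 0 fell, and 4 were higher and 2 lower at an unadjusted p under 0.05. The median was 0.04 (-0.04 without replicate 3). The arms did not overlap in 12 that were higher and 14 that were lower, not far from the 17.3% and 21.6% of all transcripts. Myl4 and hand2 are described next as single members that were lower. They do not stand for the list, whose 4 higher members at an unadjusted p under 0.05 are not described. Myl4, an atrial myosin light chain, stood at 2.78, 4.54 and 0.350 CPM in the morpholino libraries and at 25.7 and 8.91 CPM in wild type (-2.77 ± 0.93, SE, edgeR adjusted p = 0.351). At 16 hpf its means were 8.50 CPM in morpholino and 35.6 CPM in wild-type embryos, and the 15 hpf morpholino libraries stood at -1.35 against wild type of 14 hpf and at 0.26 against that of 13 hpf. Hand2, a regulator of cardiac precursors, stood at 5.42, 6.12 and 1.88 CPM in the morpholino libraries and at 13.5 and 10 CPM in wild type (-1.39 ± 0.60, SE, edgeR adjusted p = 0.479). The more abundant transcript of nkx2-5, the early cardiac factor, overlapped between the arms, at 26.1, 32.7 and 20.7 CPM in the morpholino libraries and 31.2 and 44.5 CPM in wild type. The more abundant tbx5 transcript was at or below 1.24 CPM in each library.

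Of 27 left-right and Nodal transcripts, 0 were called, 4 were higher and 0 lower at an unadjusted p under 0.05, and the median was 0.25 (0.01 without replicate 3). Foxh1 and mmp21 stood at 1.17 and 1.5 with all libraries and at 0.52 and 0.77 without replicate 3, none of them called. The receptor acvr2b fell by 0.38 without replicate 3 (edgeR adjusted p = 0.0220), where replicate 3 at 50.8 CPM lay above both wild-type libraries.

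Several patterning lists were higher by value, more so in replicate 3. At an unadjusted p under 0.05, 901 of all 16967 transcripts were higher and 728 lower, and DESeq2 called 0.837% higher and 0.607% lower. Of 81 transcripts for axis patterning signals and antagonists, edgeR called 0 (16 higher and 0 lower at an unadjusted p under 0.05) and DESeq2 3, all higher. The arms did not overlap in 42 that were higher and 7 that were lower, against 17.3% and 21.6% of all transcripts. The median was 0.57, or 0.33 against wild type of 14 hpf, 0.18 against that of 13 hpf and 0.25 without replicate 3. Without it 1.79% of all transcripts rose and 1.36% fell. On this list 5 rose and 0 fell in that fit: smad6.2, an inhibitor of BMP signalling, lhx1 of the organizer, etv1 and dusp6, which respond to FGF, and crabp2, which binds retinoic acid. Smad6.2 stood at 12.8, 13.0 and 18.1 CPM in the morpholino libraries and at 6.61 and 5.90 CPM in wild type (1.23 ± 0.27, SE, edgeR adjusted p = 0.0990, and 1.05 with adjusted p = 0.00176 without replicate 3). Of 66 epidermis and ionocyte transcripts edgeR called 0 (10 higher and 1 lower at an unadjusted p under 0.05) and DESeq2 called foxi1 and ubp1 higher, with a median of 0.32. The arms did not overlap in 25 that were higher and 11 that were lower, against 17.3% and 21.6% of all transcripts. Without replicate 3, 5 of the 66 rose and 0 fell, against 1.79% and 1.36% of all transcripts. Foxi1, which specifies ionocytes, stood at 101, 97.2 and 175 CPM in the morpholino libraries and at 57.8 and 44.9 CPM in wild type (1.28 ± 0.32, SE, edgeR adjusted p = 0.180), and ubp1 of the grainyhead family at 82.4, 94.2 and 175 CPM in the morpholino libraries and at 33.1 and 39.5 CPM in wild type (1.69 ± 0.35, SE, edgeR adjusted p = 0.0855).

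The list of presomitic mesoderm, somite and muscle held members on both sides. Of 88 tested transcripts edgeR called 0 (8 higher and 3 lower at an unadjusted p under 0.05) and DESeq2 called dlc and nrarp higher. The arms did not overlap in 20 that were higher and 31 that were lower, against 17.3% and 21.6% of all transcripts. With all libraries the median was -0.41. The median was -0.16 without replicate 3 and 0.05 against wild type of 13 hpf. Without replicate 3, 6 rose (dlc, dll1, nrarp, hes7.2, hes6.1 and pcdh8.2) and 1 fell (ripply3), against 1.79% and 1.36% of all transcripts. Dlc, a Notch ligand, stood at 242, 208 and 232 CPM in the morpholino libraries and at 132 and 156 CPM in wild type (0.66 ± 0.17, SE, edgeR adjusted p = 0.180). Of 53 proneural and early neuron transcripts 0 were called by either tool (5 higher and 2 lower at an unadjusted p under 0.05). The median was -0.21, or -0.26 without replicate 3 and 0 against wild type of 13 hpf. In 10 that were higher and 19 that were lower the arms did not overlap, against 17.3% and 21.6% of all transcripts. The neuronal RNA-binding gene elavl4, 1 of the lower members, was at a low level. It stood at 1.37, 1.08 and 0.318 CPM in the morpholino libraries and at 5.85 and 3.46 CPM in wild type (-2.34 ± 0.84, SE, edgeR adjusted p = 0.398).

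In the extracellular matrix and adhesion list, 2 of 78 fell and 0 rose, against 0.0472% each way of all transcripts, with a median of -0.12. The 2 were pdlim7 and lmnb3, of the cytoskeleton and the nuclear lamina. Both were put on the list with their earlier results known, so their calls are no independent result about it. Without replicate 3, 5 fell and 1 rose, against 1.36% and 1.79% of all transcripts. The further falls were of col6a2, a collagen VI chain, the integrin itgav and the laminin chain lama1. Lama1 stood at 143, 148 and 144 CPM in the morpholino libraries and at 275 and 248 CPM in wild type. Of 62 maternal and germ plasm transcripts edgeR called 0 (10 higher and 1 lower at an unadjusted p under 0.05) and DESeq2 3 higher and 1 lower. The arms did not overlap in 29 that were higher and 3 that were lower, against 17.3% and 21.6% of all transcripts. The median was 0.60, and it was -0.03 against wild type of 13 hpf. The maternal phosphatase cdc25c stood at 23.4, 29.0 and 20.5 CPM in the morpholino libraries and at 46.8 and 48.0 CPM in wild type, and fell by 0.86 without replicate 3 (edgeR adjusted p = 0.00486).

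Lists of general RNA composition differed most in replicate 3. The 13 mitochondrially encoded transcripts had 0 called by either tool, 0 at an unadjusted p under 0.05 and a median of 0.62 (0.22 without replicate 3). Their arms did not overlap in 10 that were higher and 0 that were lower, against 17.3% and 21.6% of all transcripts. Their summed level was 15036, 13282 and 26627 CPM in the morpholino libraries and 10129 and 12172 CPM in wild type. The 86 ribosomal protein transcripts had 0 called by either tool, 2 lower at an unadjusted p under 0.05 and a median of -0.33 (-0.09 without replicate 3). Without overlap, 1 was higher and 26 were lower, against 17.3% and 21.6% of all transcripts. The summed level of the ribosomal protein transcripts was 30526, 26883 and 18182 CPM in the morpholino libraries and 29833 and 32042 CPM in wild type. Replicate 1 thus lay between the wild-type libraries, replicate 2 below both and replicate 3 furthest below. The part that depth, mitochondrial share and ribosomal transcripts take in the values of replicate 3 was not tested. Of 110 splicing and RNA polymerase II transcripts 0 were called by either tool (15 higher and 0 lower at an unadjusted p under 0.05), with a median of 0.30 (0.15 without replicate 3). The arms did not overlap in 42 that were higher and 4 that were lower, against 17.3% and 21.6% of all transcripts. Of 23 transcripts for H2B ubiquitination and the PAF1 complex edgeR called 0 (4 higher and 2 lower at an unadjusted p under 0.05) and DESeq2 called rnf40 higher, with a median of 0.09. Without replicate 3 rnf40 and the deubiquitinase usp7 rose, while ube2b, a partner enzyme of RNF20, and both transcripts of the histone chaperone supt16h fell. Over all transcripts 1.79% rose and 1.36% fell in that fit. In replicate 3 both supt16h transcripts lay above both wild-type libraries, and with all libraries they stood at -0.33 and -0.34, not called. Of 30 transcripts for methylation of H3 at lysines of active genes, the cxxc1 transcript was the 1 that rose and 0 fell. At an unadjusted p under 0.05, 4 of the 30 were higher and 0 lower. Their median was 0.27 with all libraries and 0.03 without replicate 3. Cxxc1 was put on this list with its earlier result known.

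The other lists held few calls. Chaperones and stress had 1 that rose (riok3, put on the list with its earlier result known) and 0 that fell of 66, with a median of -0.12. At an unadjusted p under 0.05, 3 of the 66 were higher and 6 lower, where 901 and 728 of all 16967 transcripts were. DESeq2 called 1 higher and 2 lower, against 0.837% and 0.607% of all transcripts. EdgeR called 0 transcripts of the remaining 8 lists, which are endoderm (42 tested, median 0.31), notochord (27, 0.06), blood, endothelium and pronephros (40, -0.004), neural plate (91, 0.06), neural crest (53, 0.13), placodes (47, 0.16), replication and cell cycle (129, 0.14) and interferon response (39, -0.01). Between 1 and 7 of each were higher and 0 to 5 lower at an unadjusted p under 0.05, and DESeq2 called 0 to 2 higher and 0 or 1 lower in each. These ranges cover lists of unlike size and are to be read beside the same shares of all transcripts. Without replicate 3 the medians of the 8 lists were, in the same order, 0.25, -0.09, 0.05, -0.08, 0.008, -0.02, 0.04 and 0.07. Endoderm had 6 higher and 1 lower of 42 at an unadjusted p under 0.05. Its arms did not overlap in 17 that were higher and 5 that were lower, against 17.3% and 21.6% of all transcripts. Cdx2, a caudal factor of the posterior body and gut, stood at 72.8, 66.5 and 98.2 CPM in the morpholino libraries and at 40.1 and 55.3 CPM in wild type, without overlap (0.73 ± 0.19, SE, edgeR adjusted p = 0.195). Gata2, of ventral ectoderm and blood precursors, stood at 151, 149 and 579 CPM in the morpholino libraries and at 85 and 117 CPM in wild type, where replicate 3 carries most of the log2 change of 1.53 (0.57 without it, edgeR adjusted p = 0.405 and 0.183).

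**Figure D5:**
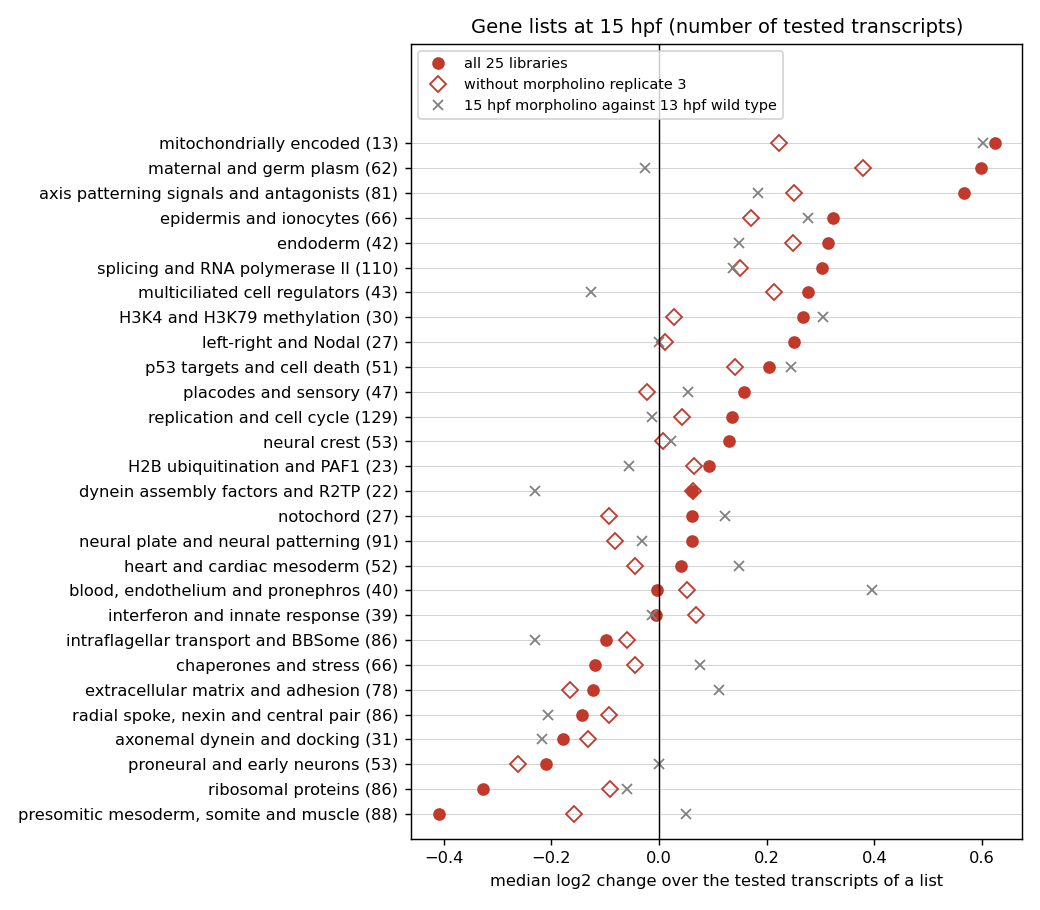
Median log2 change at 15 hpf over the tested transcripts of each of 28 gene lists (number of transcripts in brackets), with all 25 libraries (filled circles), without morpholino replicate 3 (open diamonds) and against wild type of 13 hpf (crosses). The median of all tested transcripts was -0.02, and for the mitochondrial, maternal, axis patterning, ribosomal and presomitic lists the diamonds lie nearer to 0 than the circles.

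Whole morpholino libraries also differed in which wild-type hour they were most like. Across transcripts, morpholino replicates 1 and 2 correlated best with wild type of 13 hpf (0.970 and 0.971, against 0.967 with that of 15 hpf for each), and replicate 3 with wild type of 12 hpf (0.954, against 0.920 with 15 hpf). The wild-type libraries of 15 hpf did not match their own hour best either. Wild-type replicate 1 correlated best with wild type of 16 hpf (0.974) and wild-type replicate 2 with that of 14 hpf (0.975). Each stood at 0.964 with 15 hpf, where the reference was the 1 other library. The references of the other hours were means of 2 libraries, so these 0.964 values are not on the same footing. The best match of each morpholino library was an earlier hour than that of either wild-type library. With wild type of 14 hpf in place of 15 hpf, 7 transcripts rose and 6 fell, and 11 of the 16 were still called. With wild type of 13 hpf 5 rose and 5 fell, and 8 of the 16 were still called. Ccng1 stood at 1.92 and 2.09 in these comparisons and rpap3 at -2.22 and -2.15, all called, whereas pcm1 stood at 0.98 against 14 hpf and, not called, at 0.49 against 13 hpf. How far a difference in stage takes part in the other values was not tested.

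The authors' deposited table for this hour gave an effect for 16422 transcripts, and 99 of them had a q-value under 0.05, 73 higher and 26 lower in morpholino embryos. The authors' deposited table held a q-value for 15 of the 16 transcripts called here, and 12 of these were under 0.05. For yju2 the authors' deposited table gave a q-value of 0.715.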

How the data were processed

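Poly(A)-selected RNA of whole embryos was sequenced in 25 libraries, of which 5 are at 15 hpf. The authors deposited, per the file headers, estimated counts and TPM for 22891 transcripts of each library, and a table of p-values, q-values and effects on the natural log scale for each hour. The submitters' processing notes name kallisto and sleuth, and versions, options and transcriptome are not given in the sources used here. Effects in the deposited table correlated with the log2 change at -0.943 over 11352 transcripts, so their sign is wild type minus morpholino, and it was turned. TPM served only as a check of units. The labels name Xenopus laevis, while transcript identifiers carry the prefix of Xenopus tropicalis. If the embryos were Xenopus laevis, both copies of a duplicated gene share the transcript their reads are counted on. Symbols came from the deposited table, for 14700 of the transcripts tested (11897 symbols).

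Estimated counts were rounded to whole numbers, filtered by filterByExpr over the 10 groups (16967 kept, 74.1%), scaled by TMM and fitted by edgeR's quasi-likelihood model (R 4.3.3, edgeR 4.0.16, limma 3.58.1, jsonlite 2.0.0; DESeq2 1.42.0 as an alternative) to all 25 libraries, so that the groups share 1 estimate of spread. P-values were adjusted by Benjamini-Hochberg over all transcripts tested and called under 0.05. SE is the size of the log2 change over the square root of F.

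Named transcripts are rnf20 and rnf40, those called with a mean of at least 1 log2 CPM and no overlap of the arms (up to 15 each way, filled to 8 by p), the 4 smallest p of each of 28 lists, 13 fixed genes of ciliary, laterality and heart development, and the 6 smallest p each way for the difference between hours. Other transcripts named, such as those called without replicate 3, the tissue markers and further transcripts of a symbol, were chosen after their values were seen. Some genes and lists this rule selects are not described. Members, lists and tests were chosen with earlier results of these data known, and dedd, riok3, pdlim7, lmnb3, pcm1, cxxc1 and rpap3 were put on lists in that knowledge. On simulated counts of this design, the test of morpholino against wild type recovered 9% of transcripts changed 2-fold and 76% of those changed 4-fold. It made 3 false calls among 16474. The test of the difference between hours recovered 4% and 66% of them, with 1 false call. The simulation gave each transcript the same level at all hours apart from these changes, which left out transcripts of low level. It held no library that stood apart as morpholino replicate 3 does, so recovery and false calls in the real data can differ.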

Additional observations from a re-analysis of the deposited data

How the results depend on the processing

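With all libraries 8 transcripts rose and 8 fell. DESeq2 called 142 and 103, and 12 for the difference between hours, where edgeR called 0. The 5 libraries of 15 hpf alone gave 0 and 0 (with 1475 at an unadjusted p under 0.05), a fit with fewer libraries to estimate the spread. Without morpholino replicate 3 at any hour the counts were 299 and 227, and 1 for the difference between hours. Leaving out 1 library of 15 hpf at a time gave 0 to 8 higher and 0 to 5 lower, with 3 and 4 without morpholino replicate 1, 3 and 4 without replicate 3, 4 and 1 without wild-type replicate 1, and 0 and 0 without wild-type replicate 2; the difference between hours stayed at 0. Against wild type of 13 hpf 5 rose and 5 fell. The replicate number as a block gave 94 and 97, with all 16 still called. Deviations from the arm mean correlated at 0.135 and -0.0586 between same-numbered libraries of the arms at 15 hpf. With 2 wild-type libraries these deviations mirror each other, so the values cannot decide whether the number pairs the arms. Within the morpholino arm replicate 3 stood apart at each hour (2.31% to 2.89% mitochondrial counts, against 1.33% to 1.89% in replicates 1 and 2). RLE scaling, no filter, counts per symbol and wild type of 14 hpf moved neither count by over 1.5 times. The yju2 transcript changed sign, to -0.00828 against wild type of 14 hpf and -0.143 against 13 hpf, and the cause was not tested. Rnf20 was not called under any of these alternatives. A floor of 3 counts per library limits folds of transcripts at 0, and how far depth limits the other calls was not tested.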

Other observations

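Transcripts with a small p without morpholino replicate 3 that no list held were examined after their values were seen. Pdk4, the kinase that holds back pyruvate dehydrogenase, stood at 75.6, 67.8 and 122 CPM in the morpholino libraries and at 22.6 and 23.1 CPM in wild type, and its log2 rise without replicate 3 was 1.65 ± 0.22 (SE, edgeR adjusted p = 0.00330; with all libraries 1.96, adjusted p = 0.120). Znrf3, a membrane ligase that removes Wnt receptors, stood at 40.2, 35.3 and 42.3 CPM in the morpholino libraries and at 23.6 and 19.9 CPM in wild type, with 0.79 without replicate 3 (edgeR adjusted p = 0.00433) and 0.85 with all libraries (adjusted p = 0.0571). No library of one arm reached the range of the other in either gene.

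Among transcripts that fell without replicate 3, adipor1, an adiponectin receptor, stood at 83.4, 97.6 and 57.1 CPM in the morpholino libraries and at 160.2 and 161 CPM in wild type (-0.83 ± 0.08, SE, edgeR adjusted p = 0.00102; with all libraries -1.02, adjusted p = 0.0990). Myo6, a myosin that moves towards the minus end of actin, stood at 57.6, 73.5 and 44.0 CPM in the morpholino libraries and at 117 and 121 CPM in wild type (-0.86, edgeR adjusted p = 0.00207 without replicate 3). Tle2, a Groucho co-repressor, stood at 56.7, 73.7 and 122.8 CPM in the morpholino libraries and at 151 and 183 CPM in wild type, with replicate 3 the nearest to wild type (-1.36, edgeR adjusted p = 0.00330 without replicate 3).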
